A study of Mus musculus with 2 samples.

Results

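Oxidative phosphorylation genes were taken from both genomes of the cell in dissociated mouse retina at postnatal day 7. The set held the 13 genes whose symbols begin with mt- and 93 nuclear genes whose symbols begin with Nduf and one of the letters a, b, c, s or v, with Uqcr, with Cox and a digit from 4 to 8, or with Atp5, or name a lettered Sdh subunit. Pseudogene symbols were left out, and 106 of the 32285 genes in the tables remained. Of the nuclear members, 36 were assigned to complex I, 4 to complex II, 8 to complex III, 20 to complex IV and 17 to complex V, and 8 (Ndufaf1 to Ndufaf8) were complex I assembly factors rather than subunits. All 93 nuclear members had at least 1 unique molecular identifier (UMI, one captured transcript), and 92 reached the 30 UMIs over both libraries needed for a call.

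Mitochondria make most of the ATP of a neuron by passing electrons along complexes I to IV in the inner membrane and letting the protons pumped there return through complex V, the ATP synthase. Complexes I, III, IV and V are built from subunits of both genomes, whereas complex II is wholly nuclear. The mitochondrial subunits are transcribed as long polycistronic RNAs from the mitochondrial genome and the nuclear ones as separate mRNAs. Photoreceptors are among the cells of the body with the highest oxidative demand, and at postnatal day 7 rods are still maturing.

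One library came from Mettl14-cKO retinas (Mettl14 fl/fl;Chx10-Egfp/Cre), in which the Chx10 transgene drives Cre in retinal progenitors, and 1 from age-matched control retinas that carried floxed Mettl14 as fl/fl or fl/wt with no Cre listed. Mettl14 is a subunit of the enzyme that writes N6-methyladenosine on mRNA. The number of animals behind a library, their sex and any batch were not given in the sources used here. With 1 library per genotype no test was possible and no difference has a replicate check, so every interval covers counting error alone. The comparison asks how levels differ between these libraries.

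Barcodes with at least 1000 UMIs numbered 13502 in the Mettl14-cKO library and 11426 in the control library, with 58511730 and 54544552 UMIs and medians of 3212 and 3487 UMIs per barcode. Of these, 39 barcode sequences stood in both libraries. Levels are UMIs of a gene per 1000000 UMIs of the library or gate (CPM). Mettl14 had 14.5 CPM in the Mettl14-cKO library and 27.1 in the control library, a ratio of 0.534 (95% interval 0.490 to 0.581), and its ratio lay between 0.377 and 0.689 in the 7 classes used below. The deleted part of the gene is not given in the sources used here, so a count of 3' ends does not measure the deletion itself. Barcodes were placed in classes by marker genes, and the classes are called gated barcodes because a gate does not remove RNA of other cells. The rod gate held 2583 Mettl14-cKO and 4065 control barcodes, the bipolar gate 1593 and 1966, the amacrine gate 1558 and 1148, the Müller glia gate 1355 and 1023, the neurogenic gate 1018 and 392, the cone gate 578 and 510 and the ganglion gate 415 and 270. No gate took 3585 Mettl14-cKO and 1617 control barcodes. In the cone gate the 12 rod markers made up 2.46% of UMIs in the Mettl14-cKO and 3.32% in the control library, against 2.96% and 3.77% in the rod gate, so cone-gated values contain much rod RNA. Rod markers took 0.164% and 0.244% in the bipolar gate, 0.118% and 0.145% in the amacrine gate and 0.150% and 0.239% in the Müller glia gate. The markers that define a gate differed too. Müller glia markers took 1.28% of UMIs in Mettl14-cKO and 2.18% in control in the Müller glia gate, bipolar markers 0.612% and 0.943% in the bipolar gate, and amacrine markers 0.538% and 0.470% in the amacrine gate. Their part in the results within these gates was not tested.

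Mitochondrial transcripts took fewer of the UMIs in Mettl14-cKO than in control barcodes. The 13 mt- genes together held 2.99% of UMIs in Mettl14-cKO barcodes and 3.91% in control barcodes, a ratio of 0.766 (0.764 to 0.767). The sum is called lower where the interval of its ratio lies below 1, and by that rule it was lower in all 7 classes. The log2 ratio was -0.49 in bipolar-gated barcodes, -0.47 in cone-gated, -0.42 in rod-gated, -0.35 in Müller glia-gated, -0.26 in neurogenic-gated, -0.21 in ganglion-gated and -0.17 in amacrine-gated barcodes. In rod-gated barcodes the share was 3.06% in Mettl14-cKO and 4.09% in control. In amacrine-gated barcodes it was 3.28% and 3.70%. The classes of a library share its preparation and are not replicates of one another.

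**Figure D1:**
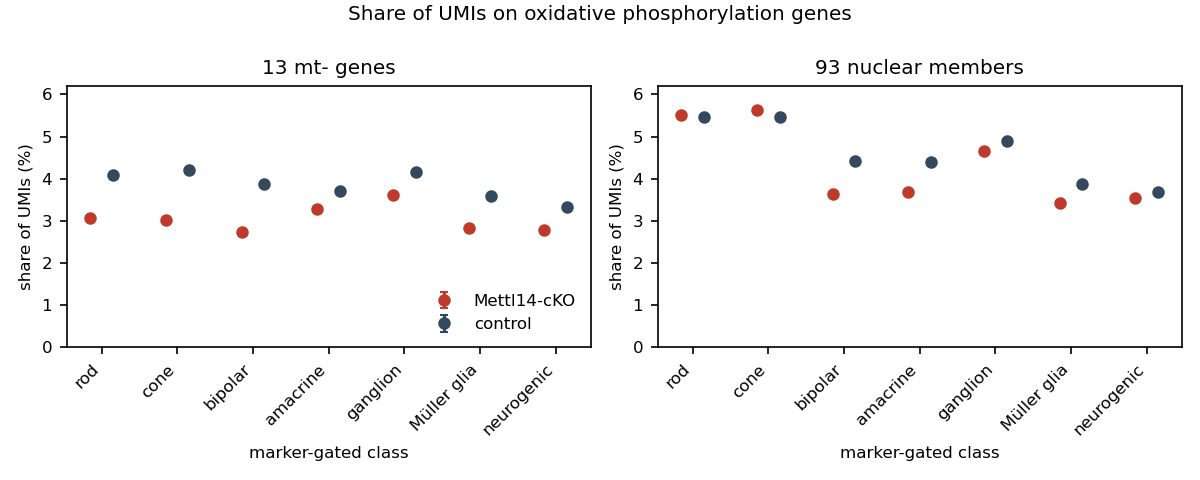
Share of UMIs (%) on the 13 mt- genes (left) and the 93 nuclear members (right) in each marker-gated class. Mettl14-cKO is in red, left of control in dark blue, with 95% Poisson intervals that are mostly smaller than the points. The mt- share is lower in Mettl14-cKO in all 7 classes, whereas the nuclear share is 5.51% against 5.47% in rod-gated barcodes and 3.64% against 4.41% in bipolar-gated barcodes.

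Single genes were called higher or lower when the level was at least 25% above or 20% below control and the exact 95% Poisson intervals of the 2 levels did not overlap. Over all barcodes 8 of the 13 mt- genes were lower and none was higher, beside 18.6% lower and 19.5% higher among all 16164 genes tested. The median log2 ratio of the mt- genes was -0.35, against -0.02 for all genes tested. Levels are counts of 3' ends not divided by length and are compared here only within a gene.

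The 3 catalytic core subunits of complex IV that the mitochondrial genome encodes were the lowest mt- genes. mt-Co3 stood at 3330 CPM in Mettl14-cKO and 5171 in control, a ratio of 0.644 (0.640 to 0.648). mt-Co2, which holds the first copper centre to receive electrons from cytochrome c, stood at 5389 and 7489 (log2 -0.47). mt-Co1, which carries the site where oxygen is reduced, stood at 3908 and 5246 (log2 -0.42). The 3 together gave a log2 ratio of -0.50 over all barcodes, and mt-Co3 had the lowest ratio of the 13 genes in 6 of the 7 classes. The exception was the ganglion gate, where mt-Nd3 of complex I was lower still, at 483 CPM in Mettl14-cKO and 741 in control (log2 -0.62).

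mt-Co3 was also lower, by the call rule, in each of the 7 classes. It had 3061 CPM in Mettl14-cKO and 5310 in control among bipolar-gated barcodes (log2 -0.79). It had 3460 and 5392 among rod-gated barcodes (log2 -0.64) and 2908 and 4584 among Müller glia-gated barcodes (log2 -0.66). The smallest differences were in amacrine-gated barcodes, with 3652 and 4859 (log2 -0.41), and in ganglion-gated barcodes, with 4176 and 5445 (log2 -0.38). No Mettl14-cKO class reached the level of any control class except ganglion-gated Mettl14-cKO barcodes, which at 4176 stood beside the lowest control level, 4175 in neurogenic-gated barcodes.

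The other end of the mt- set was made up of complex I genes and mt-Atp8. mt-Nd2, a proton-pumping membrane subunit of complex I, stood at 1385 CPM in Mettl14-cKO and 1460 in control (log2 -0.08), and mt-Nd4, another such subunit, at 2000 and 2130 (log2 -0.09). Neither passed the call rule. In Müller glia-gated barcodes the level of mt-Nd2 was 1530 in Mettl14-cKO and 1391 in control (log2 0.14), and in amacrine-gated barcodes that of mt-Nd4 was 2017 and 1800 (log2 0.16). Those values were above control but by less than 25%. The summed 7 mitochondrial genes of complex I had a log2 ratio of -0.18 over all barcodes, of -0.01 in amacrine-gated and 0.00 in neurogenic-gated barcodes, and of -0.32 in cone-gated barcodes. Of the other complex I genes, mt-Nd6 (23.8 and 31.1), mt-Nd4l (913 and 1163) and mt-Nd5 (462 and 584) were lower in Mettl14-cKO, whereas mt-Nd3 (491 and 612) and mt-Nd1 (1286 and 1467) did not pass the rule. mt-Cytb, the mitochondrial subunit of complex III, stood at 3860 in Mettl14-cKO and 4904 in control (log2 -0.35). mt-Atp6, the proton channel subunit of complex V, stood at 6388 and 8320 (log2 -0.38).

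The composition of mitochondrial RNA therefore differed as well as its amount. mt-Co3 made up 11.1% of mt- UMIs in Mettl14-cKO and 13.2% in control over all barcodes, and across the 7 classes 10.3% to 11.6% and 12.6% to 13.7%, ranges that do not overlap. mt-Nd4 made up 6.69% and 5.45% over all barcodes, and 6.15% to 7.25% and 4.86% to 5.99% across classes, again apart. mt-Nd2 made up 4.63% and 3.74%, and 4.17% to 5.42% and 3.48% to 4.05% across classes. The share of mt-Co2 was lower in Mettl14-cKO in all classes but the amacrine gate, where it was 19.6% in Mettl14-cKO and 19.5% in control. For mt-Cytb the ranges overlapped, at 12.2% to 13.8% and 11.99% to 13.6%. The ranges for mt-Co3 and mt-Nd4 are apart only among these 7 classes, which are not replicates. Astrocyte-gated barcodes had 12.64% mt-Co3 in Mettl14-cKO and 12.98% in control, against 12.56% in neurogenic-gated control barcodes. Microglia-gated control barcodes had 6.27% mt-Nd4, against 6.15% in amacrine-gated Mettl14-cKO barcodes. Within the astrocyte and microglia gates mt-Co3 was the smaller share in Mettl14-cKO and mt-Nd4 the larger. The mt-Co3 gap was narrower there than in any of the 7 classes. In the astrocyte gate mt-Nd2 went the other way, with 4.658% in Mettl14-cKO and 4.894% in control. There mt-Nd1 was also the smaller share in Mettl14-cKO, at 3.167% and 3.503%. The differences in these 2 gates were not tested.

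**Figure D2:**
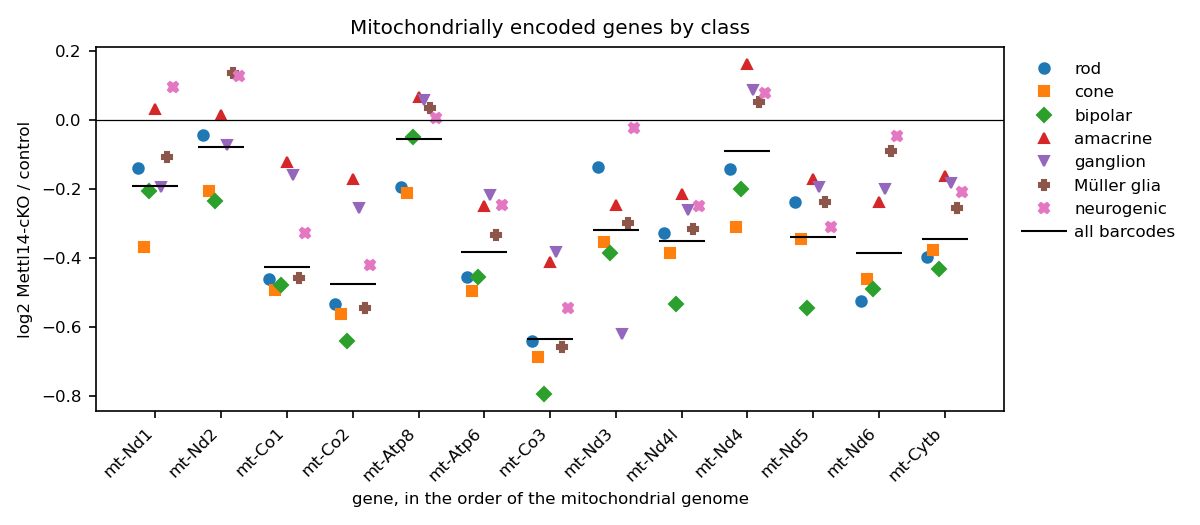
Log2 ratio of Mettl14-cKO over control for each of the 13 mt- genes (x axis, in genome order) in 7 marker-gated classes (coloured symbols) and over all barcodes (black dashes). mt-Co3 lies lowest over all barcodes at -0.64, whereas mt-Nd2 (-0.08), mt-Nd4 (-0.09) and mt-Atp8 (-0.06) lie near 0.

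Neighbouring mt- genes overlap on the mitochondrial chromosome, and reads in an overlap cannot be assigned to one of them with certainty, so the split between overlapping pairs is uncertain. The longest shared stretch is shown because mt-Atp8 and mt-Atp6, which differed in their ratios, share it. It covers 43 bases at chrM:7927-7969 on the plus strand of GRCm38, where the end of mt-Atp8 is also the start of mt-Atp6.
mt-Atp8 and mt-Atp6 overlap: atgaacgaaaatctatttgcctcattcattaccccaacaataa
mt-Nd4l and mt-Nd4 share 7 bases, mt-Atp6 and mt-Co3 share 1, and mt-Nd5 and mt-Nd6 overlap by 14 bases on opposite strands. mt-Atp8 stood at 487 CPM in Mettl14-cKO and 507 in control (log2 -0.06). The sum of mt-Atp8 and mt-Atp6, which takes in reads counted for either gene, had a log2 ratio of -0.36. Overlap reads counted for neither gene would be missing from that sum too.

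The nuclear members were lower in some classes and not in others. Together they held 4.29% of UMIs in Mettl14-cKO barcodes and 4.88% in control barcodes (ratio 0.879, 0.877 to 0.880). The log2 ratio of the sum was -0.28 in bipolar-gated barcodes, -0.26 in amacrine-gated, -0.18 in Müller glia-gated, -0.08 in ganglion-gated and -0.06 in neurogenic-gated barcodes, but 0.01 in rod-gated and 0.04 in cone-gated barcodes. Scaled to UMIs outside mt- genes, the rod-gated value was -0.0050, so it has no stable sign. Rods had the higher nuclear share and were the smaller part of the Mettl14-cKO library, 19.1% of its barcodes against 35.6% of control barcodes. With each class weighted as in the control library the log2 ratio over all barcodes was -0.11 rather than -0.19. Rod markers took 1.012% of all UMIs in Mettl14-cKO and 1.75% in control. No test of the difference between classes was possible.

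By single genes, 27 of the 92 measured nuclear members were lower over all barcodes and 5 higher, where 18.6% of all genes were lower and 19.5% higher. The median log2 ratio was -0.23, against -0.02 for all genes. At a fold of 1.5 the lower members numbered 5, with 4 higher. In bipolar-gated barcodes 48 of 88 were lower and 6 higher, beside 16.7% and 15.1% of all genes, with a median of -0.34. In amacrine-gated barcodes 40 of 88 were lower and 5 higher, beside 8.66% and 12.7%, with a median of -0.31. In Müller glia-gated barcodes 29 of 89 were lower and 4 higher, beside 11.8% and 15.05%, with a median of -0.20. Rod-gated barcodes had only 6 of 89 lower and 10 higher, beside 17.8% and 15.5%, and a median of -0.046, beside -0.054 for all genes. Ganglion-gated barcodes had 6 of 90 lower and 5 higher, beside 4.11% and 5.96%, cone-gated barcodes 5 of 89 and 11, beside 14.3% and 12.7%, and neurogenic-gated barcodes 12 of 88 and 6, beside 8.99% and 7.95%.

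Cytosolic ribosomal protein genes, which take a large part of each library, also differed in their share, which was larger in Mettl14-cKO in the Müller glia and bipolar gates and smaller in the amacrine gate. They held 12.3% of UMIs in Mettl14-cKO and 10.1% in control barcodes, 14.7% and 10.7% in the Müller glia gate, 13.6% and 11.1% in the bipolar gate, and 8.74% and 9.74% in the amacrine gate. Scaled to UMIs outside mt- and ribosomal protein genes, the log2 ratio of the nuclear sum was -0.26 in bipolar-gated, -0.28 in amacrine-gated and -0.12 in Müller glia-gated barcodes. In the Müller glia gate 24 of the 37 called members of both genomes kept their call under that scaling. In the amacrine gate both the ribosomal protein share and the nuclear sum were lower in Mettl14-cKO. The part of the ribosomal protein share in the nuclear ratios was not tested in any gate.

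Complex I, which takes electrons from NADH, had 12 of its 36 nuclear subunits lower over all barcodes and 0 higher. Of all genes, 18.6% were lower and 19.5% higher. The median log2 ratio of these subunits was -0.26. Ndufb2 and Ndufb4, accessory subunits of the membrane arm, were lower in all 7 classes. Ndufb2 stood at 333 CPM in Mettl14-cKO and 511 in control over all barcodes, a ratio of 0.652 (0.640 to 0.664). Its level was 267 and 445 in bipolar-gated barcodes (log2 -0.74), 246 and 375 in Müller glia-gated barcodes (log2 -0.61) and 397 and 559 in rod-gated barcodes (log2 -0.49). Ndufb4 stood at 286 and 431 over all barcodes (ratio 0.664, 0.651 to 0.677), and had its lowest class ratio in amacrine-gated barcodes, with 239 and 408 (log2 -0.77). Both genes were thus lower in rods as well, where 31 of the 36 complex I genes were called neither way.

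Ndufa5, another accessory subunit, was lower in rod-, bipolar-, amacrine-, Müller glia- and neurogenic-gated barcodes. Its level in bipolar-gated barcodes was 339 in Mettl14-cKO and 576 in control (log2 -0.76). Ndufa11 had 217 and 366 in Müller glia-gated barcodes (log2 -0.75), and Ndufc1 had 384 and 583 in amacrine-gated barcodes (log2 -0.61). Among the members with the most UMIs, Ndufb9 stood at 752 in Mettl14-cKO and 939 in control and Ndufb8 at 737 and 859, and neither passed the rule over all barcodes. Ndufa12 stood on the other side, with 438 and 378 over all barcodes (log2 0.21, not called), and was higher in rod-, cone- and ganglion-gated barcodes, with 569 and 424 in rods (log2 0.42).

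Complex II, which also serves the citric acid cycle as succinate dehydrogenase, had 2 of 4 subunits lower over all barcodes, beside 18.6% of all genes. Sdha, its flavoprotein, stood at 90.6 CPM in Mettl14-cKO and 134 in control (ratio 0.674, 0.650 to 0.698) and was lower in rod-, cone-, bipolar-, amacrine- and Müller glia-gated barcodes. In rod-gated barcodes it had 118 and 168 (log2 -0.51), the lowest ratio among the called nuclear members there. Sdhc, a membrane anchor, stood at 56.5 and 72.9 over all barcodes (log2 -0.37). Sdhb, the iron-sulphur subunit, at 174 and 195, and Sdhd, the other anchor, at 89.0 and 84.7, did not pass the rule.

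Complex III, which passes electrons from ubiquinol to cytochrome c, had 1 member higher, 2 lower and 5 neither over all barcodes. Of all genes, 19.5% were higher and 18.6% lower. The summed log2 ratio of complex III was -0.01. The sum was 0.18 in rod-gated and cone-gated barcodes, -0.05 in bipolar-gated and -0.08 in amacrine-gated barcodes. Uqcrfs1, the Rieske iron-sulphur protein of the complex, was higher in all 7 classes. It stood at 441 CPM in Mettl14-cKO and 273 in control over all barcodes, a ratio of 1.61 (1.58 to 1.65). Its log2 ratio lay between 0.52 in neurogenic-gated barcodes, with 428 and 299, and 0.81 in rod-gated barcodes, with 458 and 261. Uqcrq, a small subunit, was higher in rod- and cone-gated barcodes, with 1471 and 1115 in rods (log2 0.40). Uqcrc1, a core protein, with 130 and 171 over all barcodes (log2 -0.39), and Uqcrb, a small subunit, with 485 and 629 (log2 -0.37), were lower. The other core protein, Uqcrc2, had 132 and 156 (log2 -0.25) and was called neither way.

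Complex IV, cytochrome c oxidase, had 2 of 19 measured nuclear members, Cox7a2l and Ndufa4l2, higher and 7 lower over all barcodes. Of all genes, 19.5% were higher and 18.6% lower. Cox7a2l, which helps join complexes III and IV into supercomplexes, was higher in all 7 classes. It stood at 382 CPM in Mettl14-cKO and 207 in control, a ratio of 1.84 (1.80 to 1.88). The levels were 427 and 205 in bipolar-gated barcodes (log2 1.06), 377 and 195 in rod-gated barcodes (log2 0.95), 345 and 175 in Müller glia-gated barcodes (log2 0.98) and 393 and 307 in ganglion-gated barcodes (log2 0.36). No control class reached the level of the lowest Mettl14-cKO class, which was the amacrine gate with 316. Its relative Cox7a2, the common isoform of the subunit, was lower over all barcodes, with 853 in Mettl14-cKO and 1072 in control (log2 -0.33).

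Several other complex IV subunits come as tissue isoforms. Cox4i2, the isoform known from lung and low oxygen, had its highest levels in Müller glia-gated barcodes among the 7 classes. Its log2 ratio was below 0 in all 7 classes, and it was called lower in 4 of them. At low counts it had 4.25 CPM in Mettl14-cKO and 11.7 in control in cone-gated barcodes (23 and 72 UMIs). In neurogenic-gated barcodes it had 11.6 and 34.8 (48 and 47 UMIs). In Müller glia-gated barcodes it stood at 282 CPM in Mettl14-cKO and 719 in control, a ratio of 0.393 (0.368 to 0.419). Müller glia markers took 1.28% and 2.18% of UMIs in these barcodes. Its common counterpart Cox4i1 had 855 and 890 in the same barcodes (log2 -0.06). Ndufa4l2, the low-oxygen paralogue of Ndufa4, was likewise high in that gate, with 648 and 757 (log2 -0.22, not called), but was higher in rod-, cone- and bipolar-gated barcodes, with 26.3 and 15.2 in rods (log2 0.79). The 15 Müller glia markers, none at 0 in the rod gate, moved with it there, at 0.0791% of UMIs in Mettl14-cKO and 0.0387% in control, and in the cone gate, at 0.0917% and 0.0421%. In the bipolar gate they took 0.0423% and 0.0404%. Their part in the higher Ndufa4l2 was not tested. Ndufa4 itself, now counted with complex IV, stood at 1971 and 2199 over all barcodes (log2 -0.16).

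Of the remaining pairs, Cox6a1, the common isoform, was higher in rod-, cone-, bipolar-, amacrine- and neurogenic-gated barcodes, with 563 in Mettl14-cKO and 434 in control in rods (log2 0.38). Its muscle isoform Cox6a2 had 81 and 60 UMIs in the whole libraries and was called neither way. Cox8a was higher in rod-, cone- and neurogenic-gated barcodes, with 3958 and 2792 in rods (log2 0.50), and stood at 2570 and 2213 over all barcodes (log2 0.22, not called). The muscle isoform Cox8b had 3 and 28 UMIs, a ratio of 0.0999 (0.0194 to 0.323), and the testis isoform Cox8c 1 and 0. Cox6b2, a testis isoform, was lower in Müller glia-gated barcodes at 37 and 95 UMIs (log2 -1.64), in amacrine-gated at 34 and 61 (log2 -1.10) and in bipolar-gated at 22 and 65 (log2 -1.08). Cox6b1 stood at 824 and 879 CPM (log2 -0.09). Cox7a1, the muscle isoform, had 150 and 219 UMIs (log2 -0.65), and Cox7b2 had 18 and 15. Cox7b, a common subunit, was lower, with 353 and 479 CPM (log2 -0.44). Counts this small for the muscle and testis isoforms limit what their ratios can show.

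Complex V, the ATP synthase, had 4 of 17 members lower over all barcodes and none higher, beside 18.6% and 19.5% of all genes. In bipolar-gated barcodes 14 of 17 were lower, beside 16.7% of all genes. In amacrine-gated barcodes 12 of 17 were lower, beside 8.66%. Atp5md, a small membrane subunit, stood at 652 in Mettl14-cKO and 920 in control (log2 -0.50), and Atp5mpl, another, at 516 and 707 (log2 -0.45). Atp5mpl had its lowest class ratio in bipolar-gated barcodes, with 421 and 715 (log2 -0.77), but 399 and 396 in neurogenic-gated barcodes (log2 0.01). Atp5a1 and Atp5b, the catalytic ring subunits, stood at 351 and 474 (log2 -0.43) and at 574 and 736 (log2 -0.36). Atp5e, a subunit of the central stalk, stood at 939 and 1107 and Atp5l at 976 and 1032, with neither called. The 3 genes for the membrane c ring encode the same mature protein. Atp5g2 stood at 973 in Mettl14-cKO and 851 in control (log2 0.19), Atp5g3 at 699 and 751 (log2 -0.10) and Atp5g1 at 712 and 817 (log2 -0.20), and none of the 3 was called over all barcodes.

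**Figure D3:**
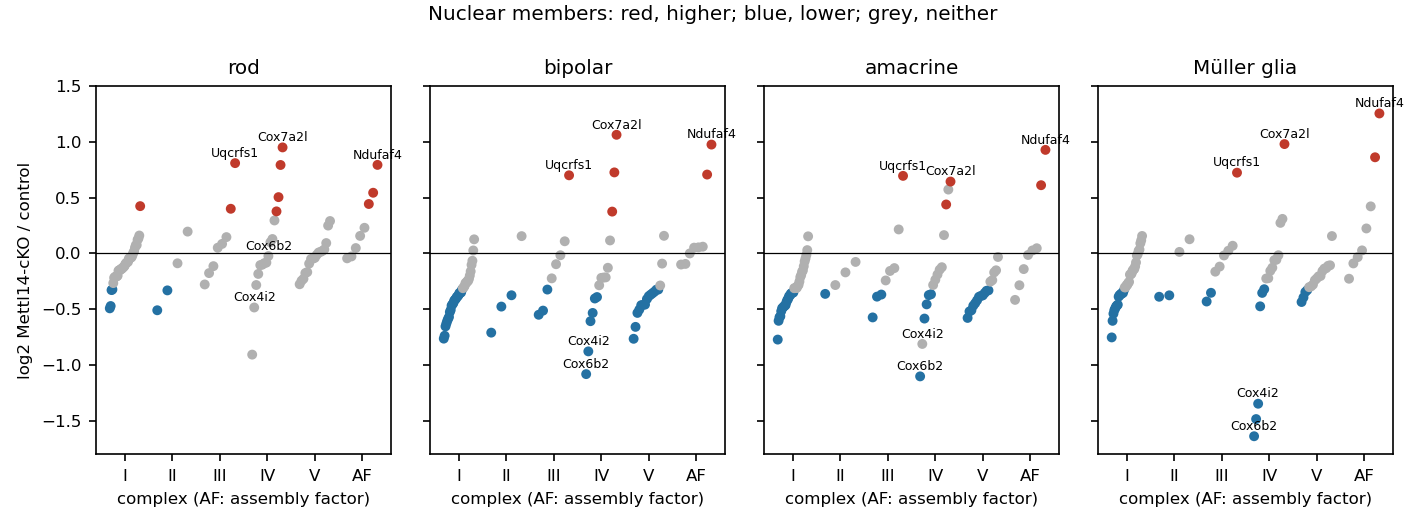
Log2 ratio of Mettl14-cKO over control of each measured nuclear member in 4 marker-gated classes, sorted within complexes I to V and assembly factors (AF), in red where higher, blue where lower and grey where neither. Blue points number 6 in rod-gated, 48 in bipolar-gated, 40 in amacrine-gated and 29 in Müller glia-gated barcodes, and Cox7a2l, Uqcrfs1 and Ndufaf4 are red in all 4.

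Of the 8 complex I assembly factors, 2 were higher over all barcodes, near the 19.5% of all genes, and the other 6 were called neither way. Their median log2 ratio was 0.08, against -0.02 for all genes. Ndufaf4 stood at 153 CPM in Mettl14-cKO and 86.3 in control, a ratio of 1.78 (1.72 to 1.84), and was higher in all 7 classes. Its levels were 139 and 58.3 in Müller glia-gated barcodes (log2 1.254), 174 and 62.2 in neurogenic-gated barcodes (log2 1.49) and 144 and 106 in ganglion-gated barcodes (log2 0.44). Ndufaf1, which works early in building the membrane arm, stood at 43.5 and 27.2 over all barcodes (log2 0.67) and was higher in every class but the neurogenic gate, where it had 46.1 and 31.1 and the intervals overlapped. Ndufaf2 was higher only in the rod gate among the 7 classes, with 54.6 and 40.2 (log2 0.44), and Ndufaf6 only in the cone gate, with 40.1 and 29.7 (log2 0.43). Whether these differ from the other classes was not tested. Ndufaf3, Ndufaf5, Ndufaf7 and Ndufaf8 were called in none, with log2 ratios over all barcodes between -0.23 and 0.06.

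Set side by side, the members of both genomes differed by complex. For complex IV the log2 ratio over all barcodes was -0.50 for mitochondrial and -0.13 for nuclear genes, so that mitochondrial UMIs per nuclear UMI were 0.964 in Mettl14-cKO and 1.2501 in control. For complex I it was -0.18 for mitochondrial and -0.27 for nuclear genes, with 0.493 and 0.464 mitochondrial UMIs per nuclear UMI. Complex III had -0.35 and -0.01, and complex V -0.36 and -0.23. In all 7 classes the log2 ratio of mitochondrial UMIs per nuclear UMI was lower for complex IV than for complex I.

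Among the 7 classes the balance was lowest in cone-gated barcodes, with 0.538 mitochondrial UMIs per nuclear UMI in Mettl14-cKO and 0.769 in control (log2 -0.51), and next lowest in rod-gated barcodes, whose RNA the cone gate also holds. It was highest in amacrine-gated barcodes. In rod-gated barcodes all complexes together had 0.555 mitochondrial UMIs per nuclear UMI in Mettl14-cKO and 0.747 in control (log2 -0.43, interval -0.44 to -0.42). In amacrine-gated barcodes they had 0.891 and 0.841 (log2 0.08, interval 0.07 to 0.10). For complex IV the log2 values were -0.63 in rod-gated and -0.05 in amacrine-gated barcodes, and for complex I -0.06 and 0.31. In rod-gated barcodes it was the mitochondrial side that was lower while the nuclear sum was at 0.01. In amacrine-gated barcodes the nuclear side had the lower log2 ratio, -0.26 against -0.17, but this gap depended on depth. Weighted by depth classes as in control, the amacrine values were -0.23 for nuclear and -0.22 for mitochondrial genes. At 1000 to 2000 UMIs stood 368 Mettl14-cKO and 104 control amacrine-gated barcodes, with nuclear shares of 2.645% and 2.78%. At 4000 to 8000 UMIs the nuclear shares were 3.95% and 4.59%. Bipolar-gated barcodes had both sides lower, -0.49 for mitochondrial and -0.28 for nuclear genes.

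**Figure D4:**
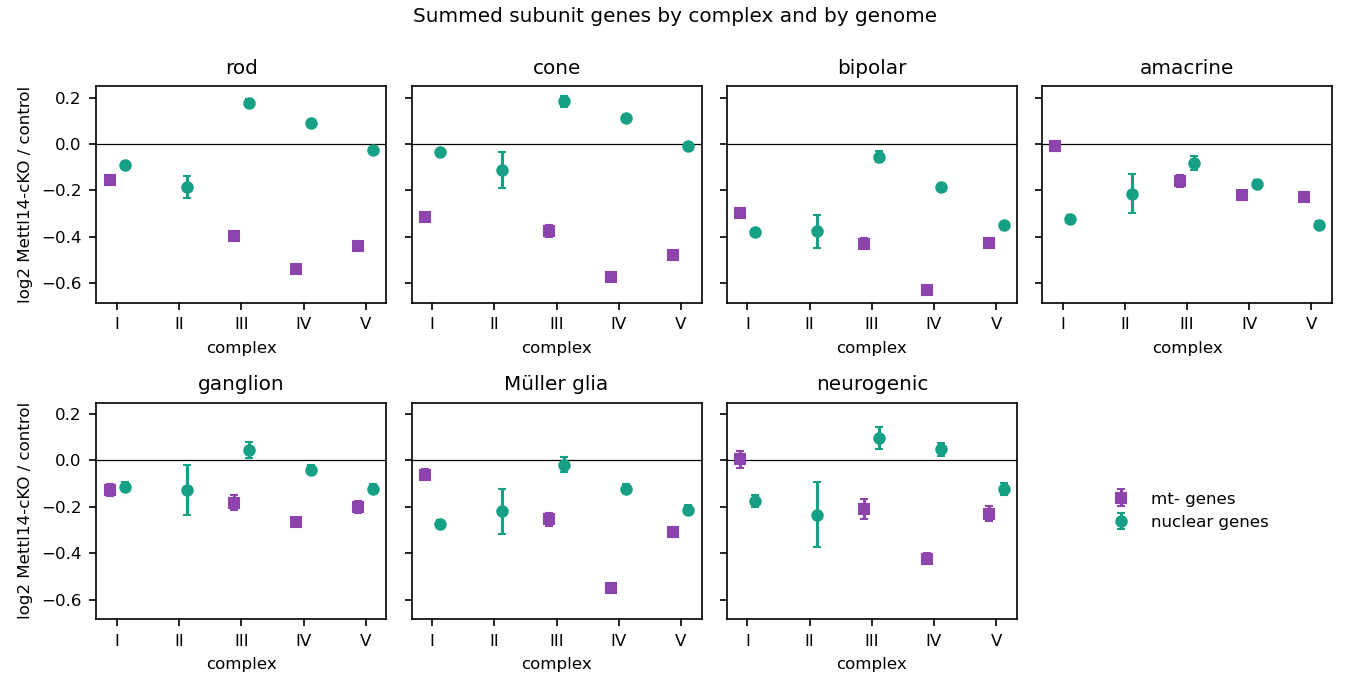
Log2 ratio of Mettl14-cKO over control of the summed mt- genes (purple squares) and summed nuclear subunit genes (green circles) of each complex in 7 marker-gated classes, with 95% intervals for counting error. Mitochondrial complex IV genes lie at -0.54 in rod-gated, -0.63 in bipolar-gated and -0.22 in amacrine-gated barcodes, and nuclear complex III genes at 0.18, -0.05 and -0.08.

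Barcode by barcode, the distributions overlapped widely. In bipolar-gated barcodes the median mt- share was 2.77% in Mettl14-cKO and 3.89% in control, and the 10th to 90th percentiles ran from 1.67% to 3.94% and from 2.64% to 5.34%. In rod-gated barcodes the medians were 3.02% and 3.84%, with 1.95% to 4.39% and 1.91% to 5.55%. For the nuclear members the medians were 5.45% and 5.38% in rod-gated and 3.56% and 4.36% in bipolar-gated barcodes. The Mettl14-cKO median of the nuclear share in bipolar-gated barcodes was below the lower quartile of control barcodes, 3.81%.

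**Figure D5:**
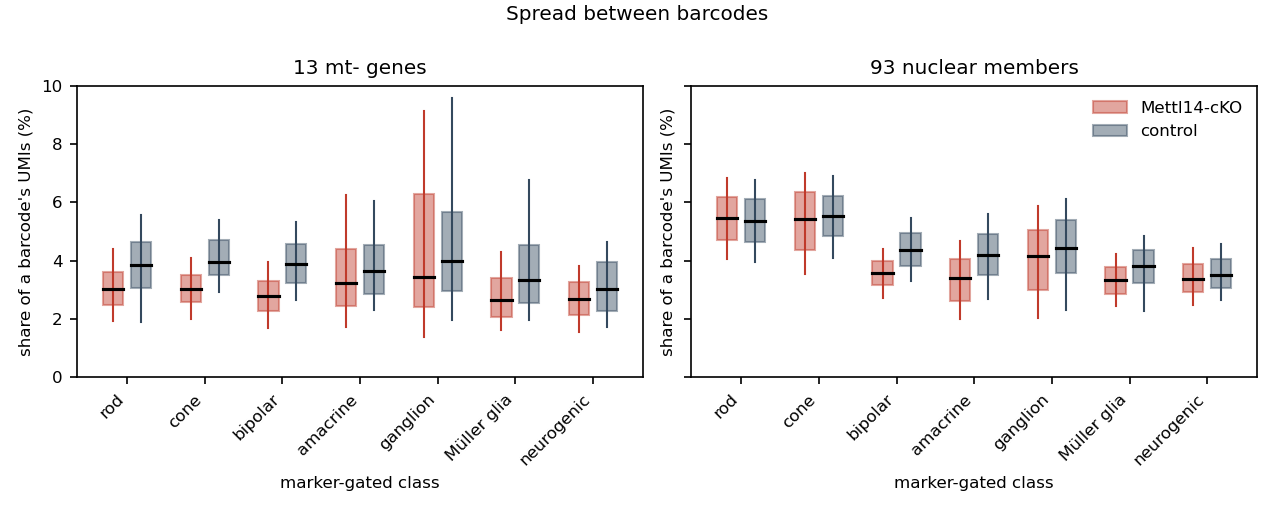
Share of a barcode's UMIs (%) on the mt- genes (left) and the nuclear members (right), with Mettl14-cKO left of control in each marker-gated class. Lines span the 10th to 90th percentile, boxes the quartiles and black bars the median, which for the mt- share is 2.67% against 3.35% in Müller glia-gated and 3.23% against 3.63% in amacrine-gated barcodes.

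The mt- share also moved with depth in some classes. In Müller glia-gated barcodes of 1000 to 2000 UMIs it was 3.63% in 198 Mettl14-cKO barcodes and 7.18% in 172 control barcodes, whereas from 2000 to 4000 UMIs it was 2.65% and 3.35% and from 4000 to 8000 UMIs 2.90% and 3.36%. Amacrine-gated barcodes of 1000 to 2000 UMIs had 5.03% in 368 Mettl14-cKO and 7.07% in 104 control barcodes, and those of 4000 to 8000 UMIs 2.93% and 3.39%. In rod-gated barcodes the share was 3.07% and 3.51% at 1000 to 2000 UMIs and 3.07% and 4.19% at 4000 to 8000 UMIs. The Mettl14-cKO share was the lower one in each of these depth classes. Ganglion-gated barcodes of 1000 to 2000 UMIs went the other way, with 5.69% in 82 Mettl14-cKO and 5.22% in 53 control barcodes. More control barcodes than Mettl14-cKO barcodes, 43 against 16, had over 15% mt- UMIs.

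Microglia do not descend from retinal progenitors, the cells in which this Cre is expressed. In 121 Mettl14-cKO and 50 control microglia-gated barcodes the mt- share was 2.89% and 3.596% (log2 -0.31, interval -0.35 to -0.28) and the nuclear share 2.91% and 3.16% (log2 -0.12). Microglia markers made up 3.04% and 2.82% of their UMIs and rod markers 0.195% and 0.586%. The mt- sum was thus lower in Mettl14-cKO in these barcodes too, by an amount within the range of the 7 retinal classes. mt-Co3 made up 11.7% and 12.3% of their mt- UMIs and mt-Nd4 7.28% and 6.27%. mt-Nd2 made up 4.47% and 4.49%, nearly the same, and mt-Co2 19.5% and 18.5%, the larger share in Mettl14-cKO. What the 2 libraries differ in beside genotype cannot be told apart from genotype.

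The promoters of the members called the same way in all 7 classes are shown to let their sequence be read beside these values. The windows are the 150 bases before the start that RefSeq gives on GRCm38.p6, written 5′ to 3′ on the strand of the gene. Capitals mark matches, on either strand, to CGGAAG, the core of ETS sites such as those of GABP, and to GCGCATG, the core of sites of NRF1, factors known for driving nuclear respiratory genes. Uqcrfs1 lies at chr13:30545317-30545466 on the minus strand, Cox7a2l at chr17:83514334-83514483 on the minus strand and Ndufaf4 at chr4:24897933-24898082 on the plus strand. Of the lower genes, Ndufb2 lies at chr6:39592415-39592564 on the plus strand and Ndufb4 at chr16:37654369-37654518 on the minus strand.
Uqcrfs1: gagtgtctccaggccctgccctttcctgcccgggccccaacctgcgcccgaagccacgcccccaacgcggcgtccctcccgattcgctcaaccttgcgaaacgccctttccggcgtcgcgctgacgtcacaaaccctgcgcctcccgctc
Cox7a2l: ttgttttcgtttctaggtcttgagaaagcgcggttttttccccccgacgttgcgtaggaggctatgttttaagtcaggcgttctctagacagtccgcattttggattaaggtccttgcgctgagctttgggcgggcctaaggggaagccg
Ndufaf4: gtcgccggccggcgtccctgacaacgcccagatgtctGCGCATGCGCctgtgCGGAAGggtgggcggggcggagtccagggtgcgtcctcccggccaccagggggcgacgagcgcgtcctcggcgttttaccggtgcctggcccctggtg
Ndufb2: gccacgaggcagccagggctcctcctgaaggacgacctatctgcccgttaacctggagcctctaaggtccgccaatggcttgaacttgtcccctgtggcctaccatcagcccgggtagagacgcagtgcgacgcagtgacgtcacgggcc
Ndufb4: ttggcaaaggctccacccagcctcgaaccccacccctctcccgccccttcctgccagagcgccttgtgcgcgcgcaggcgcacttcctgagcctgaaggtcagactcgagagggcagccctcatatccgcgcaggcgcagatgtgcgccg
Among the 3 genes that were higher throughout, only the Ndufaf4 window held these letters, and neither lower gene's window did.

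Promoter windows of 300 bases, from 250 before to 50 after the start, were found for 75 of the 93 nuclear members (80 windows). CGGAAG stood in 42.5% of them against 16.9% of all 32851 windows, GCGCATG in 18.8% against 3.91%, and ATGGCGG, the core of YY1 sites, in 16.3% against 4.05%, each searched on both strands. CGGAAG stood in 4 of the 21 windows of members lower over all barcodes, in 2 of 4 windows of those higher and in 28 of 55 windows of those called neither way. In the same order, GCGCATG stood in 3, 1 and 11 of these windows and ATGGCGG in 4, 0 and 9. These are matches of letters and describe the windows only. GGACT, a form of the sequence at which METTL14-containing complexes act, was counted in the longest annotated transcript of each gene. It occurred at a median of 0.734 per kilobase in the 5 higher nuclear members, 0.602 in the 27 lower and 1.04 in the 60 called neither way, beside 1.009 over all protein-coding genes. These medians rest on few matches, with median counts of 2, 1 and 1 per transcript, beside 3 over all protein-coding genes. No match stood in 37.0% of the lower members and 35% of those called neither way, beside 12.2% of all protein-coding genes.

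Genes around the respiratory chain were counted from lists of pathway members, to be read beside the 19.5% of all genes called higher, the 18.6% called lower and the median log2 ratio of -0.02 over all barcodes. Most of these lists are short, and counts near those shares say nothing particular about them. Of 18 measured genes for complex IV assembly and copper delivery, 5 were higher and 2 lower over all barcodes (median log2 0.03). Sco2, a copper chaperone for complex IV, stood at 40.4 CPM in Mettl14-cKO and 18.4 in control (log2 1.14) and Coa7, another assembly factor, at 49.3 and 24.2 (log2 1.03). Pet100, at 56.9 and 89.7 (log2 -0.66), and Cox17, which hands copper to the other chaperones, at 159 and 219 (log2 -0.47), were lower. Of 13 other assembly genes for complexes I, II and V, 2 were higher and 0 lower, at a median of 0.06, with Tmem70, which assembles complex V, at 83.9 and 52.4 (log2 0.68), and Sdhaf3 at 29.8 and 22.7 (log2 0.39). Of 10 listed members of complexes III to V and related factors, 1 was higher and 3 were lower (median -0.26). Atp5mpl, already counted with complex V above, is in this list and is 1 of the 3 lower. Uqcc3, a complex III assembly factor, was the higher one, at 300 and 174 (log2 0.78). Smim20 had the lowest ratio, at 23.3 and 38.0 (log2 -0.71).

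Of 13 genes for the upkeep and transcription of mitochondrial DNA, 3 were higher and 1 lower (median -0.13). Tefm, the transcription elongation factor, stood at 22.1 in Mettl14-cKO and 12.998 in control (log2 0.76), Twnk, the helicase, at 15.5 and 10.1 (log2 0.62), and Polrmt, the RNA polymerase, at 6.73 and 8.67 (log2 -0.36). Tfam, which packages the DNA and starts transcription, had 34.9 and 41.1 (log2 -0.24, not called), and was lower in rod-gated barcodes, at 31.6 and 40.9 (log2 -0.37). Of 14 genes that process, modify or stabilise mitochondrial RNA, 2 were higher and 2 lower (median 0.01), with Trmt10c at 37.6 and 24.7 (log2 0.61) and Slirp, which stabilises mitochondrial mRNAs with Lrpprc, at 85.5 and 120 (log2 -0.48). Of 78 mitochondrial ribosomal protein genes, 27 were higher and 5 lower (median 0.10), with Mrpl43 at 534 and 175 (log2 1.61).

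Regulators of mitochondrial biogenesis had 1 of 11 higher and 4 lower (median -0.19). Ppargc1a and Ppargc1b, the PGC-1 coactivators, stood at 12.955 in Mettl14-cKO and 23.1 in control (log2 -0.83) and at 37.0 and 67.9 (log2 -0.87), and both were lower within the rod gate, at 22.1 and 37.4 (log2 -0.76) and at 98.96 and 140 (log2 -0.50). Ppargc1b had its highest levels in the rod and cone gates in both libraries. The citric acid cycle had 1 of 16 higher and 4 lower over all barcodes (median -0.27) and 10 of 16 lower and none higher in bipolar-gated barcodes (median -0.42), where 16.7% of all genes were lower. Dlat, of the pyruvate dehydrogenase complex, stood at 36.3 and 56.2 (log2 -0.63), and Suclg2, of succinyl-CoA ligase, at 11.6 and 6.14 (log2 0.92). Of 12 carriers and outer membrane genes, 1 was higher and none lower (median 0.03), Tomm22 at 271 and 215 (log2 0.34). Of 84 measured cytosolic ribosomal protein genes, 33 were higher and 2 lower over all barcodes (median 0.23), and 2 were higher and 25 lower in amacrine-gated barcodes (median -0.20), where 12.7% and 8.66% of all genes were.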

How the data were processed

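Retinal single cells were profiled with the 10x Genomics 3' kit v3.1, per the labels. The authors deposited raw UMI counts per gene and barcode, made with Cell Ranger 6.1.1 (named in the file headers) on mm10 (submitters' processing notes). The lowest barcode total was 500 UMIs, so empty droplets and free RNA were not analysed here. Counts of 3' ends depend on poly(A) capture, and mt- levels are known to depend on cell integrity as well, which was not tested.

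Barcodes with at least 1000 UMIs were kept, with no limit on mt- UMIs and doublets left in. An alternative removed barcodes called by Scrublet (scanpy 1.11.5, expected rate 0.8% per 1000 barcodes), which marked 9.35% of Mettl14-cKO and 7.38% of control barcodes. A barcode entered the class with the highest mean z-score of its markers (log counts per 10000, z limited to 5) if the score was above 0.25, exceeded the next by 0.1 and rested on at least 3 markers. Gate markers are not reported as results.

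Within each library, the UMIs of a class were added up and divided by that class's total. Levels and shares have exact Poisson 95% intervals, ratios exact conditional (Clopper-Pearson) ones, and mitochondrial-to-nuclear ratios normal ones on the log scale. They cover counting error only. Calls needed 30 UMIs over both libraries. Named genes were all mt- genes, the 2 nuclear members with most UMIs per complex, isoform pairs, assembly factors and the list members with the 2 highest and 2 lowest ratios. Also named were the nuclear members with the 3 highest and 3 lowest ratios over all barcodes and in 4 classes. These needed at least 100 UMIs and Poisson intervals that did not overlap, with no fold limit. Sdhc, Sdhd, Uqcrc1, Uqcrc2, Uqcrb, Ndufa12, Ndufb3, Ndufab1, Atp5md, Atp5a1 and Atp5b were chosen after their values were seen. The members and lists were chosen with earlier results of these data known. The calling code was tested on simulated counts. Python 3.11.15, numpy 2.4.6, pandas 2.3.3 and scipy 1.17.1 were used.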

Additional observations from a re-analysis of the deposited data

Results flagged for a closer look

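Some summed or single nuclear genes lay above control in one class and below it in another, with ratio intervals that exclude 1 on both sides. The differences between classes were not tested. The nuclear members together had a log2 ratio of Mettl14-cKO over control of 0.04 in cone-gated and -0.28 in bipolar-gated barcodes. Nuclear complex III genes had 0.18 in cone-gated and -0.08 in amacrine-gated barcodes, and nuclear complex IV genes 0.11 in cone-gated and -0.19 in bipolar-gated barcodes. The complex IV sum leans on Cox8a, at 4443 CPM in Mettl14-cKO and 3116 in control in the cone gate. Of the 16 measured nuclear complex IV members there, 8 lay above and 8 below control, with a median log2 ratio of 0.04. The median was -0.05 in the rod gate and -0.22 in the bipolar gate. Ndufb3, an accessory subunit of complex I, had 0.16 in cone-gated and -0.38 in amacrine-gated barcodes. Ndufab1, the acyl carrier protein that is also a complex I subunit, had 0.11 in cone-gated and -0.36 in bipolar-gated barcodes. Ndufa4l2 had 0.84 in cone-gated and -0.22 in Müller glia-gated barcodes. The cone gate holds much rod RNA, and rod-gated barcodes had 0.01 for the nuclear sum, 0.18 for complex III and 0.09 for complex IV.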

How the results depend on the processing

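The values below are log2 ratios of Mettl14-cKO over control. As reported, the mt- sum was -0.39 (all barcodes), -0.42 (rod), -0.49 (bipolar), -0.17 (amacrine) and -0.35 (Müller glia) and the nuclear sum -0.19 (all barcodes), 0.01 (rod), -0.28 (bipolar), -0.26 (amacrine) and -0.18 (Müller glia). Of 120 alternatives to these sums and to the counts of calls, 53 stayed the same, 66 moved and 1 changed sign. A sum stayed the same if it lay within the interval for counting error. A count of calls stayed the same if it lay within 1.5-fold of the reported count. The sum that changed sign was the nuclear sum in rods, which was near 0 throughout. With at most 15% mt- UMIs and at least 500 genes per barcode, the mt- sum was -0.38 (all barcodes) and -0.33 (Müller glia). With at least 2000 UMIs per barcode, the mt- sum was -0.40 (all barcodes), -0.46 (rod), -0.48 (bipolar), -0.21 (amacrine) and -0.28 (Müller glia) and the nuclear sum was 0.0013 (rod), -0.24 (amacrine) and -0.19 (Müller glia). With all deposited barcodes, the mt- sum was -0.40 (rod) and -0.51 (bipolar) and the nuclear sum was -0.18 (all barcodes) and 0.0182 (rod). Without called doublets, the mt- sum was -0.38 (all barcodes) and -0.41 (rod) and the nuclear sum was -0.18 (all barcodes) and 0.0273 (rod). Scaled to UMIs outside mt- genes, the mt- sum was -0.40 (all barcodes), -0.43 (rod), -0.51 (bipolar) and -0.36 (Müller glia) and the nuclear sum was -0.20 (all barcodes), -0.0050 (rod), -0.30 (bipolar) and -0.19 (Müller glia). Scaled to UMIs outside mt- and ribosomal protein genes, the mt- sum was -0.36 (all barcodes), -0.41 (rod), -0.47 (bipolar), -0.20 (amacrine) and -0.29 (Müller glia) and the nuclear sum was -0.16 (all barcodes), 0.0179 (rod), -0.26 (bipolar), -0.28 (amacrine) and -0.12 (Müller glia). Centred on the median gene, the mt- sum was -0.36 (all barcodes), -0.35 (rod), -0.46 (bipolar), -0.21 (amacrine) and -0.38 (Müller glia) and the nuclear sum was -0.16 (all barcodes), 0.0752 (rod), -0.24 (bipolar), -0.29 (amacrine) and -0.21 (Müller glia). With a stricter marker gate, the mt- sum was -0.16 (amacrine). With each barcode weighted equally, the mt- sum was -0.34 (all barcodes), -0.31 (rod), -0.52 (bipolar), -0.13 (amacrine) and -0.50 (Müller glia) and the nuclear sum was -0.22 (all barcodes), 0.0222 (rod), -0.29 (bipolar), -0.31 (amacrine) and -0.16 (Müller glia). With classes weighted as in control, the mt- sum was -0.38 (all barcodes) and the nuclear sum was -0.11 (all barcodes). With depth classes weighted as in control (an alternative chosen after seeing the data), the mt- sum was -0.39 (all barcodes), -0.51 (bipolar), -0.22 (amacrine) and -0.33 (Müller glia) and the nuclear sum was -0.16 (all barcodes), -0.23 (amacrine) and -0.16 (Müller glia). At a fold of 1.5 the lower nuclear members numbered 5 rather than 27 and the higher ones 4 rather than 5. No called member changed sign in any class under the settings for barcodes, gates and scaling. The intervals are narrow because they cover counting error alone, and differences between animals were not measured. No paired analysis was possible because each genotype has 1 library.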

Other observations

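Cox4i2 had 282 CPM (UMIs per 1000000 UMIs) in Mettl14-cKO and 719 in control in Müller glia-gated barcodes, against 7.43 and 10.4 in rod-gated barcodes. It was called lower in the Müller glia, cone, bipolar and neurogenic gates and not in the rod gate.

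Horizontal-gated barcodes, 273 in Mettl14-cKO and 191 in control, had a nuclear share of 4.81% and 6.37% (log2 -0.41) and an mt- share of 2.91% and 3.75% (log2 -0.37). The control value of the nuclear share was above that of each of the 7 classes described above.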
